A study of Mus musculus with 8 samples.

Results

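Genes that the brain of a control mouse embryo expresses were followed into brains of embryos with neural tube defects (NTD). Genes were chosen by their control levels: at least 10 CPM (a gene's count scaled to the library total) in each of the 3 control libraries. This left 6707 genes of the 14496 in the brain count table. The choice used control values alone, so genes that normal brain lacks and that appear only in NTD libraries are left out. It also leans towards falls: a gene picked for being present in controls can drop to 0 in NTD libraries, and a gene picked this way cannot start near 0. The lowest control value of a member was 10.02 CPM, for Coil, and the gene just outside, Wdr45b, reached 9.99 CPM in its lowest control library.

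The NTD group holds 3 brain libraries of embryos whose dams ate a low folate diet and received 1.5 mg/kg methotrexate by intraperitoneal injection on gestational day 7.5. The control group holds 3 brain libraries of embryos labelled with normal saline. No label names a diet for the control dams, so diet and drug cannot be told apart. Both groups were collected between day 9.5 and day 10.5 of development, and no label ties replicates to separate litters, so a p-value here reflects only how these samples spread.

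Methotrexate blocks dihydrofolate reductase, the enzyme that keeps folate in the reduced form that carries one-carbon units for nucleotide synthesis. Before or around the stage sampled, the neural plate closes into a tube. The wall of the tube is then made of dividing progenitors, and the first neurons leave the cell cycle at its outer edge. Those neurons switch on their own tubulins, RNA-binding proteins and adhesion molecules on top of a housekeeping program that every cell shares. Housekeeping genes, for translation, energy, protein turnover and RNA processing, are what most RNA of such a sample encodes.

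Libraries held 17335564 to 26788304 counts in NTD and 18959473 to 26238026 counts in control. The 6707 genes took 91.0% to 92.9% of all counts in NTD libraries and 94.4% to 96.4% in control libraries. Between 61 and 144 of these genes had 3 counts or fewer in an NTD library, with 0 in control libraries by the choice of genes. On log2 CPM of the 6707 genes, the first principal component (46% of the variance) separated the groups, and the second (23.6%) set NTD library 3 at -49.3 apart from NTD libraries 1 and 2 at 38.1 and 35.1, with controls at -13.3 to 1.17. Summed levels of markers of other tissues, members or not, differed between groups. The 24 yolk sac endoderm markers in the table summed to 15570 to 20300 CPM in NTD libraries, against 576 to 1406 CPM in control libraries. The 15 trophoblast markers summed to 1364 to 2089 CPM in NTD libraries and 11.6 to 54.1 CPM in control libraries, with 6 of them at 0 in every control library (Prl3d3, Elf5, Prl7d1, Prl8a9, Cdx2 and Tpbpa). Their part in the results below was not tested. In these bulk samples, fewer cells of a type and less RNA per cell cannot be told apart.

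Most brain-expressed genes were not called different. Calls on the gene lists used below split by function, but those lists were drawn up with earlier results of these data known. Most called genes stood outside those lists. With edgeR's quasi-likelihood test fitted on all 11626 genes tested and adjusted by the Benjamini-Hochberg method, 93 of the 6707 were higher in NTD and 112 lower at an adjusted p under 0.05. That is 1.39% and 1.67% of them, beside 1.89% higher and 0.998% lower among all genes tested. Since the rule read the control values, these shares are a description. The called genes number 205 (3.06% of the 6707, beside 2.89% of all genes tested), and none of them had overlapping groups. Among the 6707, NTD values lay wholly above control values in 10.3% and wholly below in 15.2%, beside 12.4% and 12.1% of all genes tested. At an unadjusted p under 0.05, 511 were higher and 597 lower. The median log2 fold change (NTD over control) was -0.09 for the 6707 genes and -0.02 for all genes tested.

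The split between higher and lower depended on the scaling. Higher genes made up 45.4% of the calls with TMM scaling over all genes (a trimmed mean that levels the libraries), 57.3% (130 higher and 97 lower) with TMM over the 6707 genes alone and 37.3% (75 and 126) with library totals alone. These last scalings moved the median log2 fold change of the 6707 genes to 0.00 and -0.19. The counts also rested on single libraries. Leaving out NTD library 1 left 17 higher and 17 lower genes, NTD library 2 left 38 and 72, and NTD library 3 left 34 and 74. Without control library 1 they were 75 and 71, without control library 2 they were 38 and 48, and without control library 3 they were 50 and 49.

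**Figure D1:**
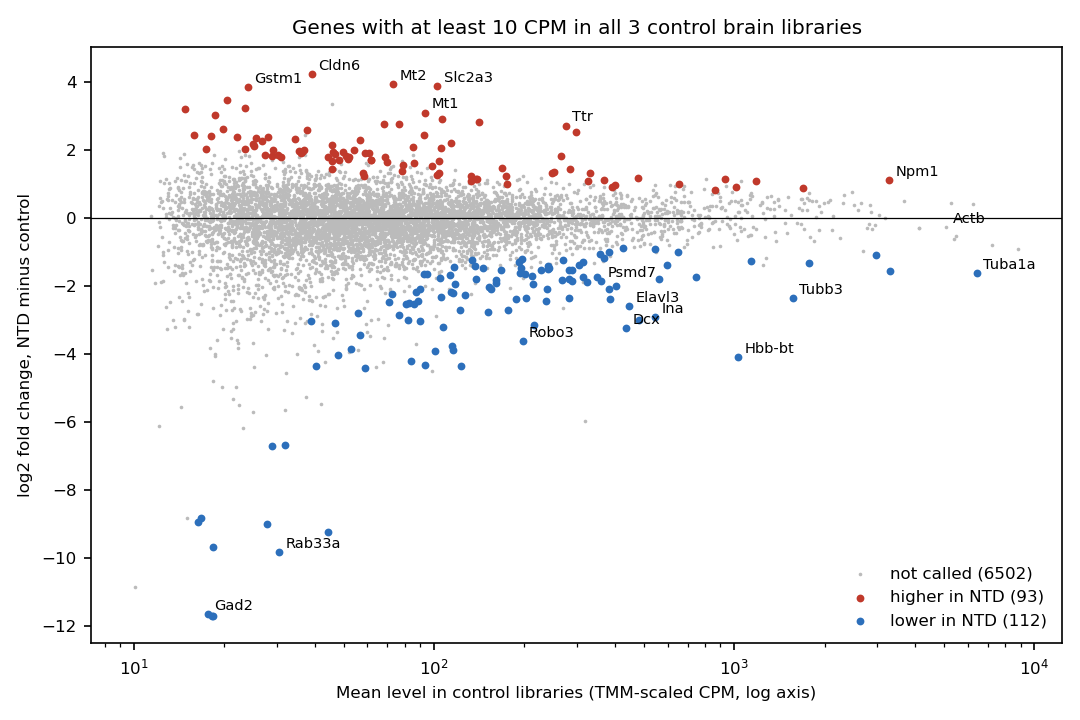
Each point is 1 of the 6707 brain-expressed genes, with its mean TMM-scaled CPM in the 3 control libraries (log axis) against its log2 fold change, NTD minus control. Red points (93) were higher in NTD, blue points (112) lower and grey points (6502) not called. Blue points outnumber red ones among the 2110 genes from 100 CPM upwards (34 higher and 78 lower). Red points outnumber blue ones among the 4597 genes below 100 CPM, a larger set (59 higher and 34 lower). The points under -8 had 0 to 4 counts in all NTD libraries together, and their position depends on the prior count of the fit.

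For most genes the data limited the size of a change only loosely. The 95% interval of the log2 fold change lay wholly within 2-fold in either direction for 1431 genes (21.3%). That share was 1.45% of the 2273 genes with a control mean of 20 to 50 CPM, 41.8% of the 1188 genes at 100 to 200 CPM, and 64.3% of the 115 genes at 1000 CPM or more. An uncalled gene at a low level is therefore not shown to be steady. The spread between libraries, as the median SD of log2 CPM, was 0.46 in NTD and 0.39 in control.

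When each of the 6 libraries was left out in turn, 15 of the 93 higher genes and 15 of the 112 lower genes were called in all 6 fits. These 30 were picked after their values were seen, for that reason. The higher genes included Cldn6, Mt2, Slc2a3, Gstm1, Trim71, Tinagl1, Mt1, Clic6, Dusp9, Ttr, Slc16a1, Fam162a, Gsn and Spint2. They encode, among others, metal-binding proteins, sugar and lactate carriers and epithelial surface proteins. The 15 lower genes were Rab33a, Sncg, Hbb-bt, Ncan, Robo3, Dcx, Ina, Ctnna2, Nhlh1, Elavl3, Fabp7, Stmn2, Srgap3, Kif5c and Tuba1a. All but Hbb-bt (an adult beta-globin) are genes known from neurons or their progenitors.

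**Figure D2:**
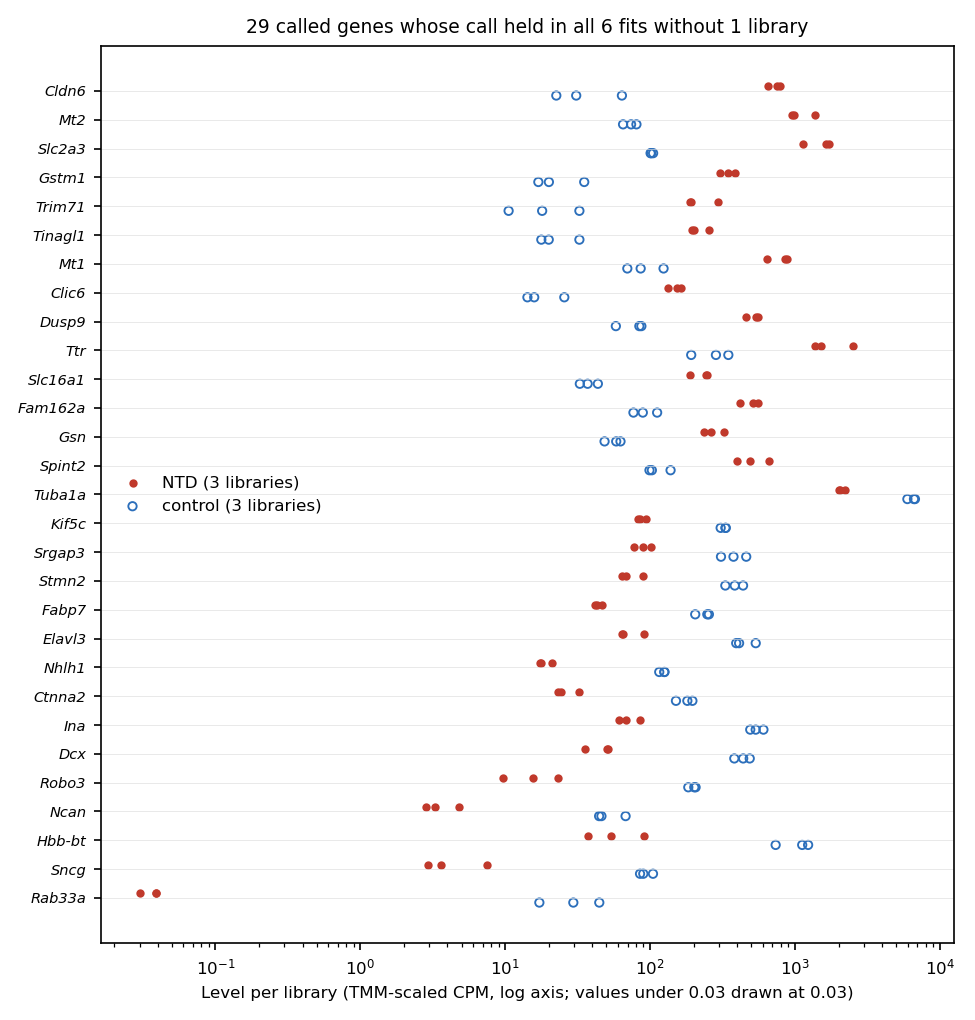
TMM-scaled CPM (log axis) of 29 called genes whose call held in all 6 fits without 1 library, with the 3 NTD libraries as red points above the 3 control libraries as open blue circles in each row. No gene's groups overlap. The rises run from Cldn6 at the top (654 to 788 CPM in NTD, 22.5 to 64.0 in control) to Spint2, and the falls from Tuba1a to Rab33a (under 0.04 CPM in NTD, 17.2 to 44.6 in control).

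Glycolysis and glucose transport was the housekeeping list with the most calls. Among its 16 members, 9 were higher in NTD and 1 was lower, with a median log2 fold change of 1.19. The 16 members together summed to 8996, 10220 and 8644 CPM in NTD libraries 1 to 3, against 3170, 3399 and 2946 CPM in control libraries 1 to 3. The groups did not overlap in this sum. Slc2a3, which encodes the high-affinity glucose transporter GLUT3 (GRCm38 chromosome 6, 122727809 to 122801640), had 1132, 1646 and 1714 CPM in NTD libraries, against 101, 105 and 102 CPM in control libraries. All NTD libraries lay far above controls that hardly differed from each other (log2 fold change 3.87 ± 0.23 SE, adjusted p = 0.000106). Slc2a1, the gene of the ubiquitous glucose transporter GLUT1, had 1717, 2437 and 986 CPM in NTD libraries and 279, 348 and 266 CPM in control libraries (2.52 ± 0.32 SE, adjusted p = 0.00395).

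The carriers that export lactate, the end product of glycolysis, rose as well. Slc16a1 (carrier MCT1) had 190, 246 and 243 CPM in NTD libraries, against 37.1, 43.6 and 32.8 CPM in control libraries (log2 fold change 2.58 ± 0.27 SE, adjusted p = 0.00187). Slc16a3 (carrier MCT4) had 504, 459 and 405 CPM in NTD libraries and 27.9, 91.9 and 84.3 CPM in control libraries (2.75 ± 0.41 SE, adjusted p = 0.00902). Enzymes of the pathway rose by smaller fitted amounts: Pfkl (phosphofructokinase) by 1.93, Aldoa (aldolase) by 1.82, Hk2 (hexokinase) by 1.25, Pkm (pyruvate kinase) by 1.14 and Tpi1 (triose phosphate isomerase) by 1.11 on the log2 scale. The exception was Ldhb, a lactate dehydrogenase subunit, with 218, 212 and 254 CPM in NTD libraries and 444, 397 and 434 CPM in control libraries (-0.90 ± 0.19 SE, adjusted p = 0.043). Pfkl, Aldoa, Hk2, Pkm, Tpi1, Slc16a3 and Ldhb are named because they complete the list's calls. Without NTD library 1 the calls of Slc2a1 (adjusted p = 0.0513), Aldoa (0.0803), Pfkl (0.0827) and Slc16a3 (0.0829) were lost. Pfkl was also lost without NTD library 3 (0.0543) and Slc16a3 without NTD library 2 (0.0518). Tpi1, Ldhb, Pkm and Hk2 were lost in 5 or 6 of the 6 fits, with adjusted p-values up to 0.161, 0.162, 0.168 and 0.168, those of NTD library 1 or 2 left out. Tpi1 was also lost with library totals alone and Ldhb with TMM over the 6707 genes. Slc2a3 and Slc16a1 kept their calls.

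Other genes known in textbooks as targets of the hypoxia-inducible factors, picked after their values were seen, moved the same way. Fam162a, a mitochondrial protein gene, had 517, 415 and 559 CPM in NTD libraries, against 76.8, 112 and 89.1 CPM in control libraries (log2 fold change 2.42 ± 0.24 SE, adjusted p = 0.00148). Bnip3, a mitophagy receptor gene, had 362, 255 and 454 CPM in NTD libraries and 110, 45.1 and 100 CPM in control libraries (2.07 ± 0.37 SE, adjusted p = 0.0196). Egln3, which encodes an oxygen-sensing prolyl hydroxylase, had 84.6, 83.6 and 155 CPM in NTD libraries and 35.1, 25.8 and 14.3 CPM in control libraries (2.10 ± 0.45 SE, adjusted p = 0.0403). The groups did not overlap for any of the 3, but Bnip3 lost its call without NTD library 1, 2 or 3 (up to 0.122). Egln3 lost it in 5 of the 6 fits (up to 0.143, without NTD library 3), with library totals alone and with limma-voom.

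Promoters of a pair of these genes are shown because the members moved together and the letters of the hypoxia response core ACGTG can be looked for in them. The sequences are the 250 bases before the RefSeq start of transcription on GRCm38.p6, 5′ to 3′ on the gene's strand, and capitals mark ACGTG or its reverse complement CACGT.
Slc16a3: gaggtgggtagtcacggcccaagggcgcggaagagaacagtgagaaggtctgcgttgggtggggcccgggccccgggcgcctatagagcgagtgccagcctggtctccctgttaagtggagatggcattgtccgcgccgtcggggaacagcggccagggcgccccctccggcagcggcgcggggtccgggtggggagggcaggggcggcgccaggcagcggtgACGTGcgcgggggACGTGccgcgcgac
Hk2: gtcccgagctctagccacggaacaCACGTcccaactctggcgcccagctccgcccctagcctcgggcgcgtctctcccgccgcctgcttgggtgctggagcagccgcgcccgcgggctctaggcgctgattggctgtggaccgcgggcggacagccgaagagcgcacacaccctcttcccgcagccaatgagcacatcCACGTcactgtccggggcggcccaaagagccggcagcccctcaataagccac
The Slc16a3 window lies at chr11:120948817-120949066 on the plus strand and the Hk2 window at chr6:82774455-82774704 on the minus strand, and each holds 2 matches. At least 1 match on either strand was found in 16.6% of all 32851 promoters in the table and in 22.1% of the 6571 promoters of brain-expressed genes. At least 2 matches were found in 6.81% and 9.48% of them. In these counts 1 CACGTG gives 2 matches, 1 on each strand. The matches in the windows shown are not of this kind, and for other promoters this was not checked. Slc16a1 and Bnip3 also hold 2, so the pair shown is among the genes with the most matches. The windows of Slc2a1, Egln3 and Fam162a hold 1. Those of Tpi1 and Pfkl hold none, nor does an Aldoa window and a Pkm window, while the other windows of Aldoa and Pkm hold 1. A match describes letters and is not a binding site.

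The metallothioneins, small proteins that bind zinc and copper, were among the largest rises. Mt2 (GRCm38 chromosome 8, 94172664 to 94173568) had 981, 962 and 1375 CPM in NTD libraries and 80.6, 74.0 and 65.1 CPM in control libraries (log2 fold change 3.92 ± 0.24 SE, adjusted p = 0.000106). Mt1, its neighbour (94179082 to 94180327), had 854, 882 and 644 CPM in NTD libraries, against 69.7, 86.2 and 124 CPM in control libraries (3.09 ± 0.28 SE, adjusted p = 0.000898). All NTD libraries lay several-fold above all controls, and both calls held whichever library was left out. The 250 bases before each gene's start on GRCm38.p6 are shown because both neighbours rose. Capitals mark the core of the metal response element, TGCNCNC, or its reverse complement GNGNGCA.
Mt2: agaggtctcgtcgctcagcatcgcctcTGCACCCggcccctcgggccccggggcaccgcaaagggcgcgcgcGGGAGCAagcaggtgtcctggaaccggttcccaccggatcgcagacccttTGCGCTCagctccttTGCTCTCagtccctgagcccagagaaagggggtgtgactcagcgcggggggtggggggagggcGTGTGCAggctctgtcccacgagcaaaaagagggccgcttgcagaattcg
Mt1: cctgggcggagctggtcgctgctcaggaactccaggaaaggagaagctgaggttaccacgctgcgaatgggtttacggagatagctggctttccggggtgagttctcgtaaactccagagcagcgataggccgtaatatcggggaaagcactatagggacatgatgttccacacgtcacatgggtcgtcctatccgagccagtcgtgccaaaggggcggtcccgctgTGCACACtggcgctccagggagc
The Mt2 window (chr8:94172368-94172617, plus strand) holds 5 matches, 3 on the gene's strand and 2 on the other. The Mt1 window (chr8:94178839-94179088, plus strand) holds 1. At least 1 match was found in 44.4% of all promoters in the table and in 53.6% of those of brain-expressed genes, and at least 4 in 1.28% and 2.13% of them.

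The list of glutathione, thioredoxin and peroxiredoxin genes, which handle oxidants, had 16 members, of which 1 was higher, with a median log2 fold change of 0.47. At an unadjusted p under 0.05, 8 were higher and 2 lower. DESeq2 called 3 higher and limma-voom 2, with 0 lower in both. The gene called in edgeR was Gstm1, a glutathione transferase, with 388, 347 and 302 CPM in NTD libraries, against 16.9, 35.1 and 20.04 CPM in control libraries. Every NTD library lay far above the highest control (log2 fold change 3.85 ± 0.34 SE, adjusted p = 0.000893). The gene belongs to a family of similar copies on chromosome 3, and how reads were shared between them is not given in the sources used here.

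Folate and one-carbon enzymes, the pathway that methotrexate and the diet act on, leaned upwards. Among 18 members, 2 were higher and 0 lower, with a median log2 fold change of 0.83 and 16 of 18 values above 0. At an unadjusted p under 0.05, 9 were higher and 0 lower. DESeq2 called 4 higher and limma-voom 2, and neither called one lower. Mthfd2, a mitochondrial folate enzyme of embryonic and proliferating cells, had 214, 140 and 186 CPM in NTD libraries and 55.0, 46.6 and 50.8 CPM in control libraries (1.83 ± 0.28 SE, adjusted p = 0.00955). Mthfd1, its multifunctional cytosolic counterpart, had 234, 182 and 189 CPM in NTD libraries and 73.2, 99.4 and 62.6 CPM in control libraries (1.36 ± 0.28 SE, adjusted p = 0.0332). The groups did not overlap for either gene. Mthfd1 lost its call without any 1 of the 6 libraries (up to 0.143, without NTD library 1). Mthfd2 lost it without NTD library 1 (0.0863), NTD library 3 (0.0512) or control library 2 (0.0537).

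Pathways that feed or use one-carbon units held a few rises. Of 11 genes of serine synthesis and the amino acid stress response, 2 were higher and none was lower at an adjusted p under 0.05 in edgeR. An unadjusted p under 0.05 gave 3 and 0, DESeq2 gave 3 and 0, and limma-voom 2 and 0. Psat1, an aminotransferase of serine synthesis, had 265, 634 and 417 CPM in NTD libraries and 103, 96.4 and 118 CPM in control libraries (log2 fold change 2.05 ± 0.32 SE, adjusted p = 0.0102). Psph, the phosphatase of the last step, had 261, 233 and 193 CPM in NTD libraries and 63.4, 99.4 and 74.4 CPM in control libraries (1.54 ± 0.27 SE, adjusted p = 0.0181). Of 18 genes of purine and pyrimidine synthesis, the 1 called was Ppat, the first committed enzyme of purine synthesis. It had 82.4, 81.2 and 130 CPM in NTD libraries, against 24.7, 35.5 and 21.7 CPM in control libraries (1.84 ± 0.38 SE, adjusted p = 0.0355). Psat1 lost its call without NTD library 2 (0.0547) or 3 (0.0573), Psph without NTD library 1 (0.116), NTD library 2 (0.0772) or control library 3 (0.0667), and Ppat without any 1 of the 6 (up to 0.132, without NTD library 3). Ppat was also not called with limma-voom.

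Genes of the translation machinery were mostly a little higher. Of 75 cytosolic ribosomal protein genes, 66 had a positive log2 fold change and 9 a negative one, with a median of 0.51, but 4 were called higher and 0 lower. At an unadjusted p under 0.05, 34 were higher and 0 lower, and DESeq2 called 21 higher and limma-voom 7, with 0 lower in both. The 75 genes summed to 106300, 111700 and 91870 CPM in NTD libraries 1 to 3, against 68920, 86190 and 78590 CPM in control libraries 1 to 3. All NTD sums lay above all control sums, and NTD library 3 and control library 2 were the closest. The 4 called genes were Rps27l (0.99), Rpl3 (0.92), Rps3 (0.91) and Rpl8 (0.81), on the log2 scale. Rps3, of the small subunit, had 1860, 2008 and 1837 CPM in NTD libraries and 1116, 1102 and 821 CPM in control libraries (0.91 ± 0.18 SE, adjusted p = 0.0321). All 4 lost their calls without any 1 of the 6 libraries (highest adjusted p without NTD library 1: Rps3 0.128, Rps27l 0.160, Rpl3 0.191 and Rpl8 0.222). Rps3, Rpl3 and Rpl8 also lost them with library totals alone. Ribosomal protein genes have many processed copies in the genome, so their counts are uncertain.

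The steps before and after ribosome assembly showed the same lean, with 1 edgeR call per list. Ribosome biogenesis, initiation, elongation and release, and synthetase lists are given in that order here. At an unadjusted p under 0.05, 9, 10, 3 and 3 were higher and 1, 2, 0 and 1 lower. DESeq2 called 5, 5, 2 and 2 higher and limma-voom 1, 1, 2 and 1, with 0 lower in both. Npm1, the abundant nucleolar chaperone of ribosome assembly, had 7187, 7456 and 6425 CPM in NTD libraries, against 3344, 3279 and 3235 CPM in control libraries. The NTD libraries lay about evenly above controls (log2 fold change 1.10 ± 0.14 SE, adjusted p = 0.00515). It was the 1 call among 34 ribosome biogenesis factors, of which 31 had positive values and whose median was 0.51. Among 32 initiation factors (median 0.27) the call was Eif2b1, a subunit of the factor that recharges eIF2, with 82.9, 110 and 90.1 CPM in NTD libraries and 18.3, 31.4 and 20.7 CPM in control libraries (2.01 ± 0.37 SE, adjusted p = 0.0233). Among 10 elongation and release factors, all with positive values (median 0.50), it was Eef1d, with 240, 203 and 209 CPM in NTD libraries and 78.7, 66.4 and 64.5 CPM in control libraries (1.64 ± 0.24 SE, adjusted p = 0.00845). Among 21 cytosolic aminoacyl-tRNA synthetases (median 0.36) it was Nars, which charges asparagine tRNA, with 198, 201 and 132 CPM in NTD libraries and 28.2, 68.5 and 41.6 CPM in control libraries (1.94 ± 0.38 SE, adjusted p = 0.0289). Npm1 and Eef1d lost their calls without NTD library 1 (0.0803 and 0.075), Nars in 5 of the 6 fits (up to 0.134, without NTD library 1) and Eif2b1 in all 6 (up to 0.105, without NTD library 2).

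Protein turnover by the proteasome had narrow intervals around no change. Of 30 proteasome subunit genes, 24 had a 95% interval wholly within 2-fold, and the median log2 fold change was 0.02. The 1 call was Psmd7, a subunit of the 19S lid (GRCm38 chromosome 8, 107580381 to 107588464), with 67.7, 123 and 104 CPM in NTD libraries and 363, 308 and 409 CPM in control libraries. Its groups lay well apart (-1.87 ± 0.28 SE, adjusted p = 0.00831). The highest value among the subunits was 0.61. Of 23 ubiquitin conjugation genes, 17 had intervals within 2-fold. The lower ones included Uchl1, a ubiquitin hydrolase abundant in neurons, with 87.1, 109 and 119 CPM in NTD libraries and 345, 282 and 418 CPM in control libraries (-1.73 ± 0.25 SE, adjusted p = 0.00701). Without NTD library 1, Psmd7 (0.0605) and Uchl1 (0.0751) lost their calls.

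Lysosomal genes went the other way. Of 19 members, 3 were higher and 0 lower, with a median of 0.50; an unadjusted p under 0.05 gave 7 higher and 0 lower, and DESeq2 and limma-voom each called 5 higher and 0 lower. Ctsb, a cathepsin protease, had 591, 636 and 671 CPM in NTD libraries and 263, 231 and 259 CPM in control libraries (log2 fold change 1.34 ± 0.19 SE, adjusted p = 0.00638). Ctsd, another cathepsin, had 262, 228 and 275 CPM in NTD libraries and 126, 103 and 82.1 CPM in control libraries (1.30 ± 0.25 SE, adjusted p = 0.0258). Atp6v1e1, a subunit of the proton pump that acidifies lysosomes, had 357, 358 and 272 CPM in NTD libraries and 69.6, 86.7 and 154 CPM in control libraries (1.67 ± 0.32 SE, adjusted p = 0.0273). Both groups stayed apart for all 3 genes. Ctsb lost its call without NTD library 1 (0.0701), and Ctsd and Atp6v1e1 in 5 of the 6 fits (up to 0.118 and 0.181, without NTD library 1).

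Among the 40 housekeeping lists, 23 had no call in either direction. Their 490 members gave 45 higher and 15 lower at an unadjusted p under 0.05, 12 and 8 with DESeq2, and 2 and 1 with limma-voom. All 6707 genes gave 511 and 597, 238 and 292, and 97 and 91 in the same order. Lists of gene expression machinery were close to a median of 0: the spliceosome core (31 members, median -0.02), SR proteins and hnRNPs (28, 0.03), RNA polymerase II and general transcription (31, 0.01), Mediator (22, -0.07), RNA exosome and decay (16, 0.02) and nuclear pore and transport (23, 0.18). Chromatin remodellers (27 members, median -0.27, 20 negative) and Polycomb and trithorax genes (18, -0.18, 13 negative) leaned downwards without a call. Medians this small shift with the scaling, which moved all 6707 genes by about 0.1.

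Proliferation genes were nearly all uncalled. Of 34 DNA replication factors, 24 had positive values (median 0.24), 0 were called, and 7 were higher and 2 lower at an unadjusted p under 0.05. DESeq2 called 2 higher and 1 lower there, and limma-voom none. Mcm7, of the replicative helicase, had 567, 530 and 762 CPM in NTD libraries and 345, 344 and 257 CPM in control libraries, which missed the threshold (log2 fold change 0.97 ± 0.23 SE, adjusted p = 0.0547). Of 27 mitosis factors (median 0.13), the 1 call was Hmmr, a spindle protein gene, with 132, 245 and 216 CPM in NTD libraries, against 66.8, 63.6 and 54.6 CPM in control libraries (1.68 ± 0.30 SE, adjusted p = 0.0198). Hmmr lost its call without NTD library 2 (0.0935), NTD library 3 (0.081), control library 2 (0.0779) or control library 3 (0.0704). Cohesin and condensin (10 members, median 0.15) and the p53 pathway (10, -0.26) had no call, with 0 higher and 0 lower also at an unadjusted p under 0.05 and in DESeq2 and limma-voom.

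Genes of mitochondria and lipid synthesis were mostly uncalled. The nuclear subunits of respiratory complex I (31 members, median 0.11) and of complexes II to IV with ATP synthase (36, 0.09) had no call, and 25 of those 36 genes had intervals within 2-fold. The citric acid cycle (23 members, median 0.16), the pentose phosphate pathway (6, 0.04) and cholesterol synthesis (19, -0.14) had none either. Of 13 mitochondrially encoded genes looked for, 8 were missing from the count table, so their levels are unknown. Among the 5 present, mt-Nd4 alone passed the 10 CPM rule, and it lay lower without a call (3979, 4195 and 3209 CPM in NTD libraries and 5562, 5284 and 5634 CPM in control libraries, adjusted p = 0.127). Of 68 mitochondrial ribosomal protein genes (median 0.09) the 1 call was Mrps21, with 120, 135 and 126 CPM in NTD libraries and 219, 436 and 283 CPM in control libraries (log2 fold change -1.30 ± 0.28 SE, adjusted p = 0.043). Of 22 import and folding genes (median 0.26) it was Hspd1, the mitochondrial chaperonin, with 2419, 2308 and 2732 CPM in NTD libraries and 1362, 1140 and 1050 CPM in control libraries (1.07 ± 0.18 SE, adjusted p = 0.0131). Of 17 fatty acid genes (median 0.24) it was Scd1, a desaturase, with 95.8, 78.9 and 160 CPM in NTD libraries and 20.2, 32.8 and 21.9 CPM in control libraries (2.16 ± 0.40 SE, adjusted p = 0.0232). Hspd1 lost its call without NTD library 1 (0.0974), 2 (0.0545) or 3 (0.0623) or control library 2 (0.0635). Mrps21 lost it with TMM over the 6707 genes, with limma-voom and in 5 of the 6 fits (up to 0.185, without control library 2). Scd1 lost it in 5 (up to 0.0998, without NTD library 3).

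Chaperones, secretion and the actin cytoskeleton had no call. Cytosolic chaperones (24 members, median 0.22) had 17 intervals within 2-fold. Chaperones of the endoplasmic reticulum (14 members, median 0.32), protein translocation (27, 0.36), vesicle coats (20, 0.15), autophagy (14, -0.17) and the actin core (28, 0.22) made up the rest.

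**Figure D3:**
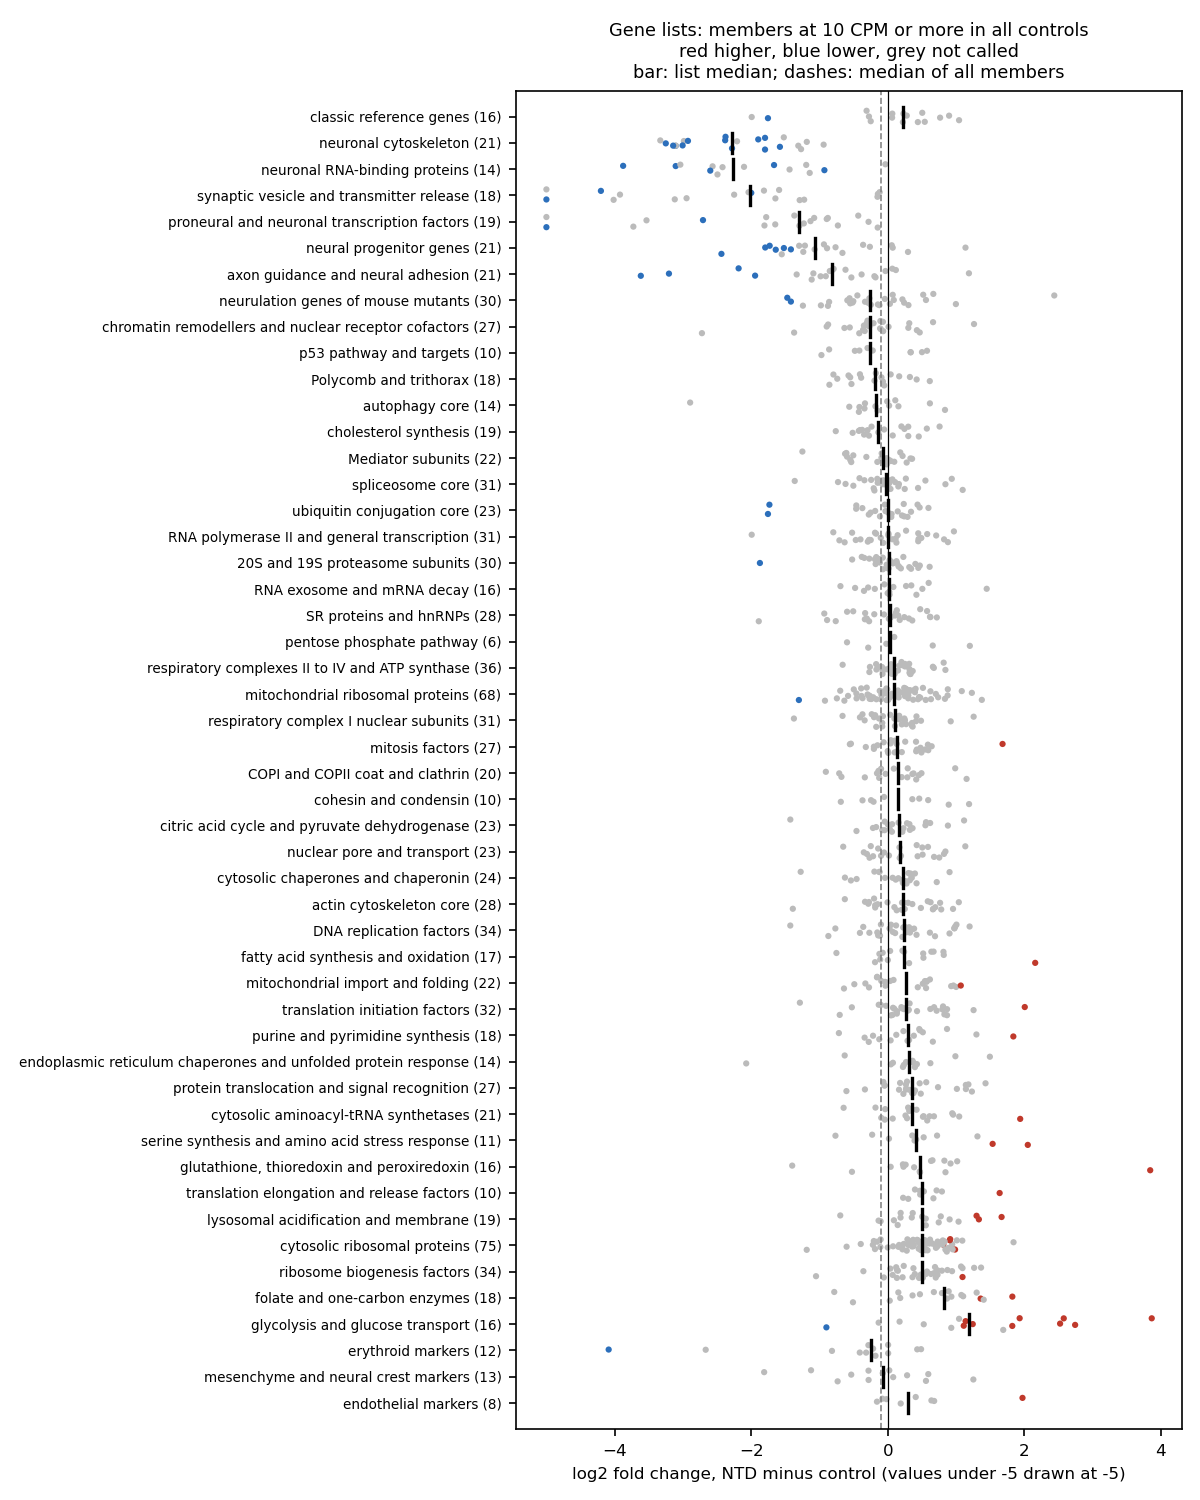
Each point is a brain-expressed member of a gene list, placed by its log2 fold change, NTD minus control (values under -5 drawn at -5), with lists of at least 5 members in rows and member numbers in parentheses. Red points were called higher in NTD, blue points lower and grey points not called; black bars are list medians and the dashed line is the median of all 6707 genes, -0.09. The 3 lists of neuronal cytoskeleton, RNA-binding and synaptic genes have medians under -2, while glycolysis sits at 1.19.

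Genes commonly used to scale expression measurements were compared in the same way. Of 20 such genes, 16 passed the 10 CPM rule. Gapdh, the glycolytic enzyme gene used most often for this purpose, had 346, 455 and 203 CPM in NTD libraries and 120, 215 and 152 CPM in control libraries. Like other enzymes of this kind it has processed copies in the genome. Its NTD library 3 lay below the highest control, and it was not called (log2 fold change 1.04 ± 0.34 SE, adjusted p = 0.157). B2m had 522, 437 and 439 CPM in NTD libraries and 314, 273 and 373 CPM in control libraries, apart but not called (0.54 ± 0.21 SE, adjusted p = 0.232). Tbp, the TATA-binding protein, was too low to judge, with 5.78, 0 and 7.03 CPM in NTD libraries and 11.4, 14.9 and 24.7 CPM in control libraries (adjusted p = 0.699). Sdha, of complex II, had 486, 539 and 383 CPM in NTD libraries and 445, 458 and 443 CPM in control libraries (0.06 ± 0.20 SE, adjusted p = 0.949). Actb, the most used actin gene, had 4908, 3957 and 3751 CPM in NTD libraries and 4138, 6370 and 4758 CPM in control libraries (-0.28 ± 0.20 SE, adjusted p = 0.634). In total, 7 of the 16 had intervals within 2-fold.

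The 10 genes with the narrowest interval around no change, among those with a mean of at least 100 CPM, were Arpp19, Cand1, Fscn1, Fubp1, H2afx, Kpnb1, Mapre1, Parp1, Ywhab and Zfp706. Zfp706 had 527, 576 and 537 CPM in NTD libraries, against 513, 515 and 546 CPM in control libraries (log2 fold change 0.06 ± 0.17 SE). Cand1, which exchanges cullin ligase subunits, had 464, 402 and 424 CPM in NTD libraries and 471, 412 and 399 CPM in control libraries (0.01 ± 0.19 SE). Fscn1, an actin-bundling protein gene, had 932, 907 and 972 CPM in NTD libraries and 999, 902 and 1001 CPM in control libraries (-0.05 ± 0.16 SE). The groups overlapped for all 3, and these genes were chosen for being steady, so this is a description.

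**Figure D4:**
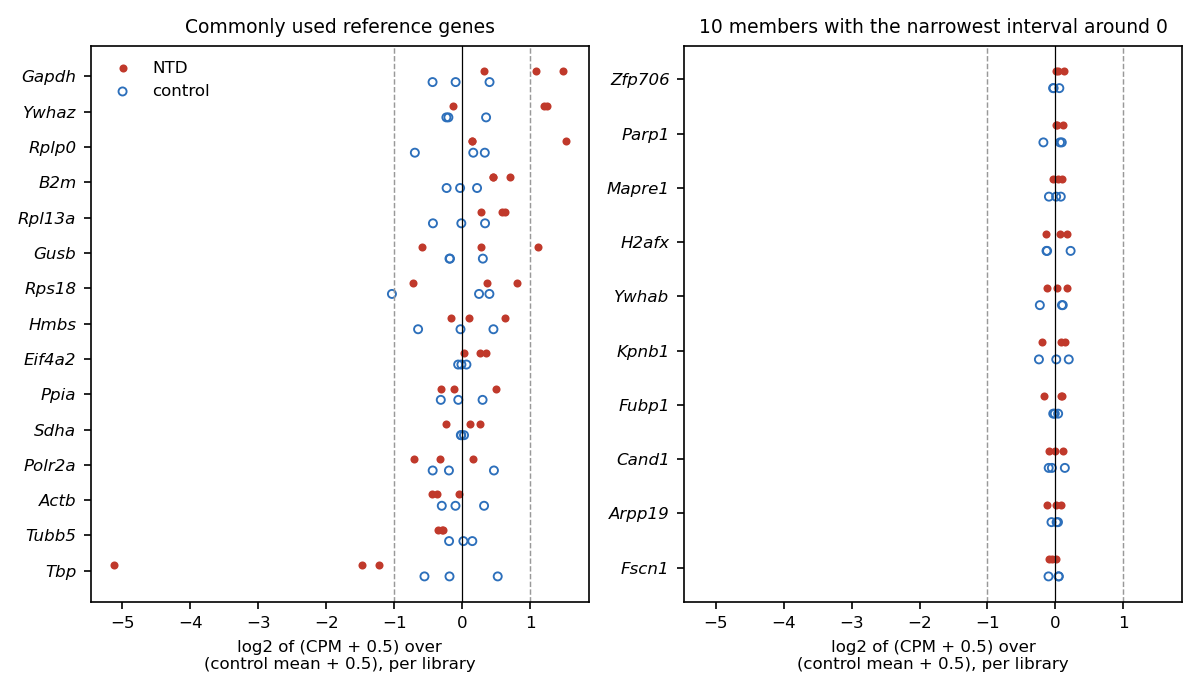
log2 of TMM-scaled CPM in each library over the control mean, with 0.5 added to both, for 15 commonly used reference genes (left) and the 10 members with the narrowest interval around 0 (right). Red points are the 3 NTD libraries and open blue circles the 3 control libraries, and dashed lines mark 2-fold. Tbp lies below the lower dashed line in all NTD libraries, and the 10 steady genes stay well inside both lines.

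Neural genes were the other side of the comparison. Of 141 genes on 7 neural lists, 32 were lower and 0 were higher, with a median log2 fold change of -1.21. At an unadjusted p under 0.05, 70 were lower and 3 higher, DESeq2 called 58 lower and 1 higher, and limma-voom 30 and 1. Among the 944 members of housekeeping lists, 5 were lower and 29 higher, with a median of 0.20. The lists were drawn up with earlier results of these data known, so the split between them is a description.

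The neuronal cytoskeleton held the most calls of the 7 neural lists. All 21 members had negative values (median -2.28), 12 were lower and 0 higher; an unadjusted p under 0.05 and DESeq2 each gave 18 lower and 0 higher, and limma-voom 12 and 0. Their levels summed to 2122, 2067 and 2543 CPM in NTD libraries 1 to 3, against 10770, 8285 and 7387 CPM in control libraries 1 to 3. Dcx, the doublecortin of migrating neurons (GRCm38 chromosome X, 143855842 to 143933311), had 51.0, 50.6 and 35.8 CPM in NTD libraries and 488, 439 and 382 CPM in control libraries (-3.25 ± 0.25 SE, adjusted p = 0.000613). Ina, a neuronal intermediate filament gene, had 85.5, 61.4 and 67.9 CPM in NTD libraries and 492, 536 and 606 CPM in control libraries (-2.93 ± 0.23 SE, adjusted p = 0.000613). Stmn2, which regulates microtubules in growth cones, had 68.2, 64.1 and 89.2 CPM in NTD libraries and 331, 384 and 439 CPM in control libraries (-2.38 ± 0.24 SE, adjusted p = 0.00175).

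These 3 genes were low in every NTD library and kept their calls whichever library was left out. Nefl and Nefm, the light and medium neurofilament genes, Map2 and Mapt, which encode microtubule-associated proteins, and Gap43, of growth cones, had log2 fold changes of -3.14, -1.80, -3.00, -3.11 and -1.80. The remaining calls were Tubb3, Tubb2b, Stmn3 and Kif5c, a neuronal kinesin. Nefl, Nefm, Mapt, Gap43 and Stmn3 are named because they complete the list's calls. Without NTD library 1, Nefl (adjusted p = 0.0503), Nefm (0.0514), Tubb3 (0.0513), Tubb2b (0.0532) and Map2 (0.0541) lay just past the threshold. Stmn3, Gap43 and Mapt lost their calls in 5 of the 6 fits (up to 0.0784 without control library 2, 0.120 without NTD library 1 and 0.161 without control library 3). Tuba1a, the main tubulin of young neurons and the highest called gene in controls (GRCm38 chromosome 15, 98949837 to 98953703), had 2027, 2062 and 2203 CPM in NTD libraries, against 6734, 5972 and 6632 CPM in control libraries (-1.62 ± 0.15 SE, adjusted p = 0.00102). Its call held in all 6 fits, though alpha-tubulin genes are near-identical in parts and their counts are uncertain.

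RNA-binding proteins of neurons had 14 members, all with negative values (median -2.26), of which 5 were lower and 0 higher. An unadjusted p under 0.05 gave 8 lower, DESeq2 5 and limma-voom 2, with 0 higher in each. Elavl3, a regulator of neuronal mRNA, had 65.5, 64.4 and 91.4 CPM in NTD libraries and 393, 412 and 536 CPM in control libraries (log2 fold change -2.60 ± 0.25 SE, adjusted p = 0.0014). Celf4 had 2.58, 8.26 and 12.8 CPM in NTD libraries and 123, 53.9 and 170 CPM in control libraries (-3.88 ± 0.67 SE, adjusted p = 0.017). The others were Rbfox2, a splicing regulator, at -0.93, Elavl4 at -1.67, and Mapt, which the list shares with the cytoskeleton list. Elavl3 kept its call, Celf4 lost it without NTD library 1 (0.0731), NTD library 2 (0.0788) or control library 3 (0.0522), and Rbfox2 and Elavl4 lost it without any 1 of the 6 (up to 0.115 without NTD library 1 and 0.185 without control library 2). Mapt lost it in 5 of them (up to 0.161, without control library 3). Both Rbfox2 and Elavl4 also lost it with TMM over the 6707 genes alone, and Elavl4 with DESeq2's size factors. Celf4, Mapt and Elavl4 were not called with limma-voom.

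Synaptic genes had 18 members, all negative (median -2.02), with 3 lower and 0 higher; an unadjusted p under 0.05 gave 10 lower, DESeq2 8 and limma-voom 2, with 0 higher in each. Syt11, a synaptotagmin gene, had 82.9, 117 and 104 CPM in NTD libraries and 349, 375 and 493 CPM in control libraries (log2 fold change -1.999 ± 0.25 SE, adjusted p = 0.00364). Slc17a6, the vesicular glutamate transporter of early neurons, had 2.15, 3.99 and 7.58 CPM in NTD libraries and 47.4, 80.7 and 124 CPM in control libraries (-4.20 ± 0.64 SE, adjusted p = 0.00908). The third, Gad2, an enzyme of GABA synthesis, had 0 counts in all 3 NTD libraries and 462, 596 and 213 counts in control libraries (adjusted p = 0.0325). Syt11 lost its call without NTD library 1 (0.0532), Slc17a6 without NTD library 1 (0.0657) or 2 (0.0547), and Gad2 in 5 of the 6 fits (up to 0.186, without control library 2). Slc17a6 was also not called with limma-voom.

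A few genes of control brain nearly vanished from NTD libraries. Members with 3 counts or fewer over all NTD libraries together numbered 10, and 8 of them were called lower. Trim67 and Tmem145 held 0 counts in every NTD library, like Gad2, against 206 to 599 and 261 to 654 counts in control libraries. Rab33a, a GTPase gene of growing axons, held 1, 1 and 0 counts in NTD libraries, against 1035, 809 and 330 counts in control libraries (adjusted p = 0.00515). The other calls were Lin7a, Pnma2, Jph3 and Isl2, a motor neuron transcription factor. Iqsec3 and Trpm1, named after their values were seen, were at 2 and 0 counts over the NTD libraries and were not called (adjusted p = 0.0578 and 0.0838). Rab33a kept its call whichever library was left out, but was not called with limma-voom. Nor were Trim67, Pnma2, Lin7a, Jph3 and Isl2. Trim67, Tmem145 and Pnma2 lost theirs in 5 of the 6 fits (up to 0.146 and 0.186 without control library 2, and 0.187 without control library 3), Jph3 and Isl2 in all 6 (up to 0.159 without control library 3 and 0.248 without control library 2), and Lin7a without NTD library 1 (0.077) or control library 2 (0.0823).

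Axon guidance and adhesion genes had 21 members (median -0.81), with 4 lower and 0 higher; 10 were lower and 1 higher at an unadjusted p under 0.05, and DESeq2 and limma-voom called 7 and 4 lower and 0 higher. Robo3, the receptor that lets commissural axons cross the midline, had 9.61, 23.0 and 15.6 CPM in NTD libraries and 184, 202 and 206 CPM in control libraries (log2 fold change -3.62 ± 0.38 SE, adjusted p = 0.00185). Nfasc, an adhesion molecule of axon segments, had 10.9, 16.8 and 7.09 CPM in NTD libraries and 136, 80.9 and 104 CPM in control libraries (-3.20 ± 0.45 SE, adjusted p = 0.00653). The others were Cntn2, an early axonal adhesion gene, at -2.18 and L1cam, a cell adhesion gene of axons, at -1.94. Robo3 kept its call, Nfasc lost it without NTD library 1 (0.0612), Cntn2 without NTD library 1 (0.0701) or control library 2 (0.0635), and L1cam in 4 of the 6 fits (up to 0.100, without control library 2).

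Transcription factors and progenitor genes had medians nearer to 0 than the cytoskeletal list. Of 19 proneural and neuronal factors, all negative (median -1.29), 2 were lower and 0 higher; an unadjusted p under 0.05 and DESeq2 each gave 11 lower, and limma-voom 3, with 0 higher in each. Nhlh1, which marks newborn neurons, had 17.5, 21.1 and 17.6 CPM in NTD libraries and 116, 126 and 125 CPM in control libraries (log2 fold change -2.71 ± 0.32 SE, adjusted p = 0.00304). The second was Isl2, given above. Of 21 progenitor genes (median -1.07), 6 were lower and 0 higher; an unadjusted p under 0.05 gave 9 lower, DESeq2 8 and limma-voom 6, with 0 higher in each. Fabp7, a fatty acid binding protein of radial glia, had 46.3, 42.9 and 41.7 CPM in NTD libraries and 205, 248 and 255 CPM in control libraries (-2.44 ± 0.25 SE, adjusted p = 0.00175). Hes6 and Dll3 of the Notch pathway, its effector Hes5, the zinc finger factor gene Zic1 and Pax3 had log2 fold changes of -1.79, -1.64, -1.52, -1.73 and -1.42. Nhlh1 and Fabp7 kept their calls. Hes6 lost its call without NTD library 1 (0.0974) or control library 2 (0.0635) and Dll3 without NTD library 1 (0.0863), NTD library 3 (0.055) or control library 2 (0.0565). Isl2, Hes5, Zic1 and Pax3 lost theirs without any 1 of the 6, up to 0.248 and 0.098 without control library 2 for Isl2 and Pax3, and up to 0.103 and 0.0745 without NTD library 1 for Hes5 and Zic1.

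Genes whose loss disturbs neural tube closure in mice were mostly not called. Of 30 such members (median -0.26), 2 were lower and 0 higher; an unadjusted p under 0.05 gave 6 lower and 2 higher, DESeq2 3 and 1, and limma-voom 2 and 1. Scrib, a polarity gene of the closing tube, had 107, 84.9 and 69.2 CPM in NTD libraries and 258, 215 and 251 CPM in control libraries (log2 fold change -1.47 ± 0.26 SE, adjusted p = 0.0174). Pax3, a dorsal neural tube factor whose mutation causes the Splotch phenotype, had 54.4, 49.2 and 50.5 CPM in NTD libraries and 157, 126 and 129 CPM in control libraries (-1.42 ± 0.27 SE, adjusted p = 0.0271). No NTD library reached a control in either gene. Scrib lost its call in 5 of the 6 fits (up to 0.0658, without NTD library 2) and Pax3 in all 6 (up to 0.098, without control library 2).

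Pairs of related genes, 1 neuron-enriched and 1 broad, allowed a comparison inside each library. Compared here are 13 pairs in which both genes passed the 10 CPM rule, and in 9 of them the ratio of the neuronal to the broad gene was lower in every NTD library than in any control library. The neuronal gene was called lower in 8 of the 13, and the broad gene in 1, Stmn1. Tubb3 over Tubb5, both beta-tubulins, had a ratio of 0.0828, 0.0960 and 0.0945 in NTD libraries, against 0.564, 0.349 and 0.241 in control libraries. Tubb3 itself had 279, 325 and 304 CPM in NTD libraries and 2353, 1259 and 1101 CPM in control libraries (log2 fold change -2.38 ± 0.29 SE, adjusted p = 0.00378), while Tubb5 changed by -0.31 ± 0.16 SE without a call (adjusted p = 0.413). Elavl3 over Elavl1 had a ratio of 1.596, 2.57 and 1.22 in NTD libraries and 7.98, 6.43 and 13.6 in control libraries. Kif5c over Kif5b, kinesin heavy chains, had a ratio of 1.49, 4.17 and 2.63 in NTD libraries and 5.90, 6.95 and 5.58 in control libraries.

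Map2 over Map4, microtubule-associated proteins, was at 0.344, 0.443 and 0.596 in NTD libraries and 5.24, 3.15 and 3.03 in control libraries. Map2 had 40.5, 56.0 and 84.1 CPM in NTD libraries and 761, 396 and 292 CPM in control libraries, while Map4 lay between 117 and 141 CPM in NTD libraries and between 96.2 and 145 CPM in control libraries. Stmn2 fell with Stmn1 rather than alone: Stmn1 had 1259, 1435 and 1467 CPM in NTD libraries and 3581, 2957 and 2390 CPM in control libraries (-1.10 ± 0.19 SE, adjusted p = 0.0173). The ratio of Vamp2 to Vamp3, vesicle proteins of neurons and of most cells, overlapped between groups. Without NTD library 1 the calls of Tubb3 (0.0513), Map2 (0.0541) and Stmn1 (0.0951) were lost, and Stmn1 also without NTD library 2 (0.0519) or control library 2 (0.0566). The pairs were chosen with the falls of neuronal genes known.

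**Figure D5:**
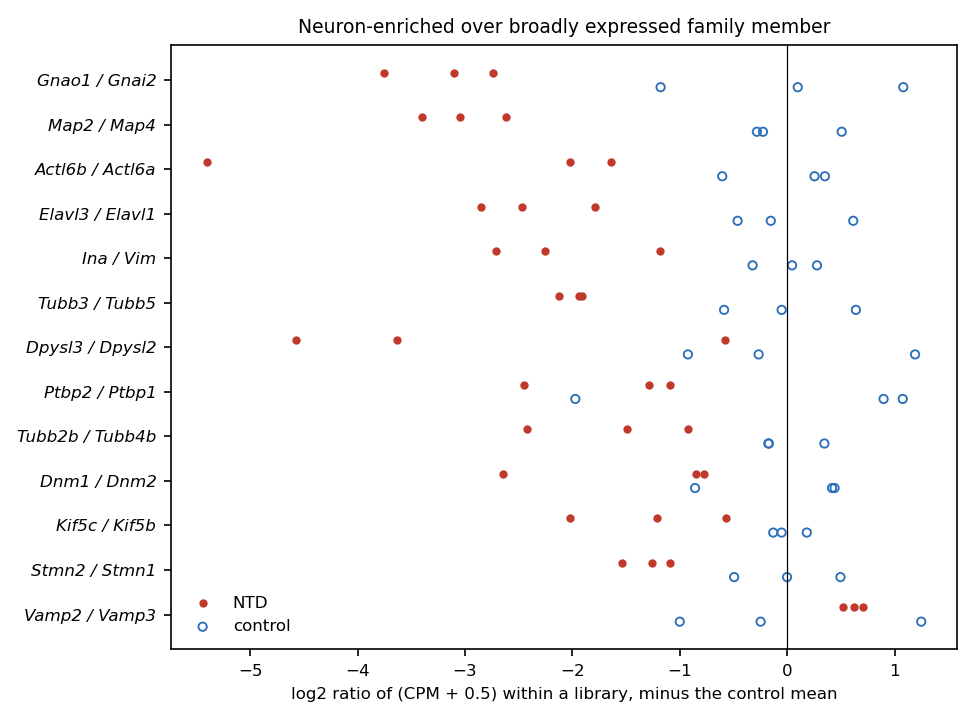
Each row is a pair of related genes, and each point the log2 ratio of the neuron-enriched to the broad gene in 1 library (0.5 CPM added to both), minus the mean of the 3 control libraries. Red points are NTD libraries and open blue circles control libraries. The red points lie left of all open circles in 9 of 13 pairs, and Vamp2 over Vamp3 is the pair whose fitted difference runs the other way (0.87).

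Several of the largest rises belong to genes of epithelia. Cldn6, a tight junction gene of embryonic epithelia (GRCm38 chromosome 17, 23679249 to 23682446), had 654, 788 and 746 CPM in NTD libraries and 64.0, 30.9 and 22.5 CPM in control libraries (log2 fold change 4.22 ± 0.40 SE, adjusted p = 0.00116). Ttr, which carries thyroid hormone and is made by yolk sac and later by choroid plexus, had 1505, 1379 and 2496 CPM in NTD libraries and 192, 285 and 347 CPM in control libraries (2.71 ± 0.31 SE, adjusted p = 0.00258). Apoe, a lipid carrier, had 1041, 420 and 937 CPM in NTD libraries and 46.0, 123 and 151 CPM in control libraries (2.91 ± 0.48 SE, adjusted p = 0.0145). Ttr and Apoe are the 2 called among the 4 yolk sac markers that passed the 10 CPM rule, and Cldn6 and Spint2, a membrane protease inhibitor, are the 2 called among 3 surface epithelium markers.

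Among markers tested, whether or not they passed the 10 CPM rule, 11 of 24 for yolk sac and 9 of 14 for trophoblast were higher in NTD. None of either list was lower. Of 18 surface epithelium markers tested, 7 were higher and 1 was lower. These counts include the members named above. Among all genes tested, 1.89% were higher and 0.998% lower. The 18 surface epithelium markers summed to 1986 to 2469 CPM in NTD libraries, against 246 to 352 CPM in control libraries. Whether a rise of a brain-expressed gene came with these markers was not tested. Apoe lost its call without NTD library 1 (adjusted p = 0.106), NTD library 3 (0.0861) or control library 2 (0.0843). Cldn6, Ttr and Spint2 kept theirs.

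The remaining large rises are of mixed function. Trim71, an RNA-binding ubiquitin ligase of early embryos that declines with differentiation, had 193, 188 and 293 CPM in NTD libraries and 10.6, 32.5 and 18.0 CPM in control libraries (log2 fold change 3.46 ± 0.45 SE, adjusted p = 0.00464). Tinagl1, a matrix protein gene, had 203, 255 and 195 CPM in NTD libraries and 17.8, 32.5 and 19.99 CPM in control libraries (3.21 ± 0.34 SE, adjusted p = 0.00185). Dusp9, a phosphatase of MAP kinases, had 535, 560 and 463 CPM in NTD libraries and 87.1, 84.4 and 58.1 CPM in control libraries (2.76 ± 0.24 SE, adjusted p = 0.000893). None of these groups overlapped. Sepp1, which encodes the plasma carrier of selenium, had 1114, 756 and 1093 CPM in NTD libraries and 149, 85.1 and 191 CPM in control libraries (2.80 ± 0.32 SE, adjusted p = 0.00274), and lost its call without NTD library 1 (0.0514).

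Blood, vessel, mesenchyme and macrophage markers held few calls. Of 12 erythroid members (median -0.25), the 1 call was Hbb-bt, with 37.3, 53.8 and 90.8 CPM in NTD libraries and 1233, 736 and 1122 CPM in control libraries (log2 fold change -4.09 ± 0.37 SE, adjusted p = 0.00102). Of the embryonic globin genes, Hba-x was not called, with 7564, 8359 and 5448 CPM in NTD libraries and 2802, 7418 and 5623 CPM in control libraries (adjusted p = 0.643). The erythroid markers in the table summed to 20240 to 22130 CPM in NTD libraries and 16440 to 26730 CPM in control libraries, and these sums overlap. Hbb-bt shares nearly all its sequence with Hbb-bs, so reads of the pair may be split unevenly. The endothelial markers in the table summed to 615 to 676 CPM in NTD libraries and 416 to 505 CPM in control libraries, without overlap. Of 8 endothelial members (median 0.30), Flt1, a VEGF receptor gene, had 126, 149 and 66.4 CPM in NTD libraries and 17.2, 31.4 and 38.5 CPM in control libraries (1.97 ± 0.44 SE, adjusted p = 0.0478). Flt1 lost its call without any 1 of the 6 libraries (up to 0.207, without NTD library 1), with library totals alone and with limma-voom. None of 13 mesenchyme and neural crest members was called, with 1 higher and 2 lower at an unadjusted p under 0.05, 1 and 0 with DESeq2, and 0 and 0 with limma-voom. The macrophage markers in the table summed to 71.0 to 83.5 CPM in NTD libraries, against 132 to 245 CPM in control libraries, also without overlap. The 2 macrophage members, 1 muscle member, 1 Y-linked member and 4 stress and dissociation members were not called either.

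Most called genes stood outside the lists: 59 of 93 higher and 74 of 112 lower. Several lower ones are known from axons and the neural surface and were picked after their values were seen, for keeping their call in all 6 fits. Sncg, gamma-synuclein, had 3.59, 7.45 and 2.95 CPM in NTD libraries and 105, 85.3 and 89.8 CPM in control libraries (log2 fold change -4.32 ± 0.51 SE, adjusted p = 0.00306). Ncan, a proteoglycan of the nervous system matrix, had 4.77, 3.26 and 2.83 CPM in NTD libraries and 67.8, 44.5 and 46.2 CPM in control libraries (-3.87 ± 0.58 SE, adjusted p = 0.00869). Ctnna2, the neuronal alpha-catenin, had 32.5, 23.0 and 24.5 CPM in NTD libraries and 181, 196 and 151 CPM in control libraries (-2.72 ± 0.30 SE, adjusted p = 0.00222). The NTD values lay under all control values in all 3 genes, and Sncg and Ncan were not called with limma-voom.

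The called genes also differed in features that the choice did not use, given here as descriptions. The longest annotated transcript had a median length of 2.43 kb for higher genes, 3.83 kb for lower genes and 3.46 kb for all 6707, and its GC content 50.3%, 53.03% and 50.1%. Across 6692 genes with an annotation, the log2 fold change had a Spearman correlation of -0.15 with transcript length and -0.10 with GC content, over libraries that share their preparation; genes are not independent replicates. In mouse embryonic stem cells (mESC; 1 library without folic acid, FA0, and 1 with 4 mg/L, FA4), 60 of the 93 higher genes (64.5%), 47 of the 112 lower genes (42.0%) and 73.3% of all 6707 were listed. That table lists only genes with a peak of a second assay, so an unlisted gene is not shown to be silent. Among listed genes the median level over both libraries was 75.5 FPKM for higher genes, 7.79 FPKM for lower genes and 18.2 FPKM for all. Slc2a3 had 513 FPKM in FA0 and 549 FPKM in FA4, and Mt2 had 232 and 320 FPKM, while Dcx, Robo3 and Tuba1a were not listed.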

How the data were processed

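The authors deposited read counts per gene for the 6 brain libraries and FPKM values for the 2 mESC libraries, per the file headers. The submitters' processing notes name build mm10 and, without a role, HISAT2 2.0.4, HTSeq 0.9.1, edgeR and cutadapt 1.9.3. Which gene models and which strandedness the counting used is not given in the sources used here, so overlapping and antisense genes are uncertain.

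NTD was compared with control on counts in edgeR 4.0.16 (quasi-likelihood F-test, TMM, filterByExpr, robust dispersion), without a replicate block, on all genes, with Benjamini-Hochberg adjustment over the 11626 kept and a threshold of 0.05. Printed CPM are TMM-scaled; the 10 CPM rule used unscaled CPM. SE came from the test statistic, and intervals are 95%. Alternatives were DESeq2 1.42.0, limma-voom (limma 3.58.1), other scalings and filters, a replicate block, each library left out and other expression rules. Of these methods, the main edgeR fit alone was tested on simulated data with the same group sizes. The edgeR fit called 0% of 67 genes changed 2-fold, 19.4% of 67 changed 4-fold and 48.5% of 66 changed 8-fold. It called 0.0275% of the unchanged genes. A gene or list without a call is therefore not shown to be unchanged.

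The genes, lists and pairs were chosen with earlier results of these data known. Named genes were the 12 largest rises and falls among non-overlapping calls, the 3 best called members of each list (or the 2 best members where none was called), reference genes, pairs, the 10 steadiest, the 10 highest in controls and those at the threshold; others are marked as picked after their values were seen or as completing a list. Coordinates are from GENCODE M21 (GRCm38, the assembly mm10 names; 6692 of 6707 genes matched), promoters from RefSeq on GRCm38.p6 (5127 of 6707, 76.4%, which is too few for a check over all genes). FPKM depth is unknown. Peak values were not used here. A few named genes are not reported here.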

Additional observations from a re-analysis of the deposited data

How the results depend on the processing

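Of the 101 called genes followed, none changed sign in any alternative, and 27 kept their call in all of them. The 101 are the named genes together with every call kept in all 6 fits without 1 library. They thus hold all 30 such calls among the 205, and 27 of 101 is not a share that holds for all calls. Limma-voom lost 21 of the 101, library totals alone 6, TMM over the 6707 genes 4, and no filter or DESeq2's size factors 1 each. Leaving out control library 1 and NTD library 3 together, which earlier results had set apart, lost 27, and their split from the other 4 as a term, chosen after seeing the data, lost 12. The counts for higher and lower genes, 93 and 112, stayed within 1.5 times under other scalings, no filter, a stricter filter, limma-voom, that double omission and that term. DESeq2's Wald test gave 238 higher and 292 lower. Leaving out 1 library gave 17 to 75 higher and 17 to 74 lower. Defined by a mean of 10 CPM over all 6 libraries, the genes had 198 higher; by 10 CPM in all NTD libraries, 193; by 50 CPM in all controls, 47, and the counts of lower genes stayed within 1.5 times. The replicate number as a block gave 63 higher and 73 lower. Same-numbered libraries deviated together at r = -0.04, 0.11 and 0.09, and differently numbered ones at -0.18 to 0.11. With 3 libraries per group these values cannot show whether the numbers stand for pairs. Under the block, 30 followed calls were lost and 1 was gained. Losses under the block, that double omission or that term are not named gene by gene above. Causes of these shifts were not tested. Depth limits the lowest genes: 0% of intervals lay within 2-fold at a control mean of 10 to 20 CPM, with a median SE of 0.81.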
